A study of Mus musculus with 2 samples.

Results

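Acyl-CoA thioesterases were described in liver RNA of female NOG-TKm30 mice given ortho-toluidine (OTD), set against untreated mice of the same strain. The genes were the 7 acyl-CoA thioesterase symbols Acot1, Acot2, Acot3, Acot4, Acot8, Acot12 and Acot13, taken by name from 15348 listed genes, and all 7 were present. They were selected on their symbols with their OTD and Control levels already known, so the values below are a description. The OTD group was 1 library made from the mixed RNA of 5 mice, treated at 16 weeks of age with 0.6% OTD for 1 week and then 0.3% OTD for 3 weeks. The Control group was 1 library made from the mixed RNA of 3 mice of that age, which received 0% OTD over the same 4 weeks. Mice of both groups were immunodeficient and carried clone 30, a mutant thymidine kinase of herpes simplex virus, under control of the transthyretin gene's enhancer and promoter, which is active in hepatocytes. One of the labels' protocols names C57BL mice in place of NOG-TKm30, and the table's columns are headed Wild, a word left unexplained in the labels. How the OTD was given is not stated in the sources used here.

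Acyl-CoA thioesterases cut fatty acyl-CoA into a free fatty acid and coenzyme A, and so work against the acyl-CoA synthetases that join the same parts. Members sit in the cytosol, mitochondria and peroxisomes, where they set the balance between acyl-CoA, free fatty acid and free coenzyme A. In mouse liver several of them, with Acot1 as the best known, are targets of PPAR-alpha, the nuclear receptor that raises fatty acid oxidation genes on fasting.

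The deposited values were read counts scaled to CPM with a further factor per library, and are called levels below. Over the listed genes, reads summed to 14685193 in the OTD library and 13569189 in the Control library. There were no replicates, so no difference below has a replicate check or a p-value. Ratios of levels are OTD over Control and are given with 95% intervals, computed exactly (Clopper-Pearson) from the reads of both libraries, which cover counting error only. Log2 ratios were taken with a pseudocount of 1, which understates the difference of low genes, and genes with a mean level of at least 10 were called measured. The hepatocyte markers Alb, Apoa1, Ttr, Serpina1a and Apoh were abundant in both libraries, with a summed level of 84847 in OTD and 98126 in Control, a ratio of 0.865, and all 5 were below a log2 ratio of 0. Most of the sum was Alb, at 69694 in OTD and 81661 in Control. Single ratios were 0.853 for Alb, 0.919 for Apoa1, 0.961 for Ttr, 0.916 for Serpina1a and 0.850 for Apoh. In bulk tissue, fewer hepatocytes and less RNA per hepatocyte cannot be told apart. Summed marker levels of the other cell types, OTD against Control, were 260.8 against 283.7 for Kupffer cells, 393.8 against 411.0 for sinusoidal endothelium, 470.4 against 500.7 for stellate cells and 43.1 against 46.1 for cholangiocytes. Log2 ratios were below 0 for 5 of 6 Kupffer cell, 3 of 5 endothelial, 4 of 5 stellate and 2 of 5 cholangiocyte markers. Over all measured genes 51.6% were below 0. The cholangiocyte markers Krt19, Krt7 and Epcam had 30, 26 and 13 reads in OTD and 21, 10 and 10 in Control, with ratios of 1.27 (0.703 to 2.33), 2.31 (1.08 to 5.37) and 1.16 (0.468 to 2.94). Erythroid markers summed to 229.7 in OTD and 215.5 in Control, with 1 of 4 below a log2 ratio of 0. Of 5 adipocyte markers 2 were listed, at a summed level of 0.601 in OTD and 1.28 in Control. Of 4 lymphoid markers 1 was listed, Ptprc, at 9.42 in OTD and 6.76 in Control, a ratio of 1.39 (1.06 to 1.84). The part of these shifts in the thioesterase values was not tested.

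Acot1 to Acot6 are tandem copies on chromosome 12, and their sequences show how alike they are. In GRCm38 the cluster runs from 83987861 to 84111349, a span of 123.5 kb on the plus strand, with Acot1 at 84009490 to 84018371, Acot2 at 83987861 to 83993873, Acot3 at 84052144 to 84060402 and Acot4 at 84038379 to 84048601. Each of Acot1, Acot2 and Acot4 has 3 exons, and Acot3 has 4. The following 90 coding bases are shown because their identity to Acot1 is, over the 3 other copies together, closest to that of the whole coding sequences; they were read from GENCODE M21 transcripts and start at coding base 1022 in Acot1, 1145 in Acot2, 1061 in Acot3 and 1028 in Acot4. Capitals mark bases that differ from Acot1.
Acot1: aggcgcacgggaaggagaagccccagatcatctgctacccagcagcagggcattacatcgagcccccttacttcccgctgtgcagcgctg
Acot2: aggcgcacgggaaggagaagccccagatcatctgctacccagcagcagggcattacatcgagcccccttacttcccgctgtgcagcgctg
Acot3: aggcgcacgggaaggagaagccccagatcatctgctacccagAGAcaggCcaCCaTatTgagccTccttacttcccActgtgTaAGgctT
Acot4: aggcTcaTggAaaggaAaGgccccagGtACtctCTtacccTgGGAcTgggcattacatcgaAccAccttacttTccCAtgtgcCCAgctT
In this stretch Acot2 differed from Acot1 at 0 bases, Acot3 at 14 and Acot4 at 24. Over the coding sequences aligned in pairs Acot1 was 95.6% identical to Acot2, 84.0% to Acot3 and 75.5% to Acot4. In the joint alignment used to choose the stretch, the values were 95.3%, 83.9% and 72.8%. The longest run without a difference between Acot1 and Acot2 was 273 bases.

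The windows from 250 bases before to 50 bases after the transcription start were examined for letters of the PPAR response element, a direct repeat of the half-site AGGTCA with a spacer of 1 base (AGGTCANAGGTCA). Windows were in RefSeq for 6 of the 7 genes, on build GRCm38.p6, and both strands were searched. Shown are the gene with the lowest ratio, Acot1, and the 2 genes with a direct repeat of up to 2 mismatches, Acot4 and Acot12. Capitals mark the direct repeat in Acot4 and Acot12, where it was read on the opposite strand, and a CCAAT box in Acot1. The windows are chr12:84009252-84009551 for Acot1, chr12:84038129-84038428 for Acot4 and chr13:91741271-91741570 for Acot12, all on the plus strand.
Acot1: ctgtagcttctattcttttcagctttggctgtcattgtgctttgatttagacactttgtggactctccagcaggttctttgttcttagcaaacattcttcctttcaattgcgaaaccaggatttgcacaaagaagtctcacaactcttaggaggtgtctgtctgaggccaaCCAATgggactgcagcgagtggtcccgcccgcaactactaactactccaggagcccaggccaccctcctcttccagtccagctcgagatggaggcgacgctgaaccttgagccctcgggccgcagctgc
Acot4: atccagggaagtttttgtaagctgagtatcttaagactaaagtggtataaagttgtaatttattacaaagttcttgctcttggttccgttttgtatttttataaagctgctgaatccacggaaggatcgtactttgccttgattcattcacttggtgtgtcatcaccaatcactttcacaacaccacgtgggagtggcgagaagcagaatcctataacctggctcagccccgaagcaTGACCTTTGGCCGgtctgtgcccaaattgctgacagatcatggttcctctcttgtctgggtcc
Acot12: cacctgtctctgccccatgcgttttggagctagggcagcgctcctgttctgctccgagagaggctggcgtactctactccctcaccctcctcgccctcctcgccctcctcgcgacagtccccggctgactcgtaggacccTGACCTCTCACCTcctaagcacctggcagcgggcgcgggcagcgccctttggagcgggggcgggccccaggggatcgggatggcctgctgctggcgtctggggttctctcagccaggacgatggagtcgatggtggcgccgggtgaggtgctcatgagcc
The closest match to the direct repeat had 1 mismatch in Acot12, 2 in Acot4, 3 in Acot2 and Acot3, 4 in Acot1 and 5 in Acot8. A match with up to 2 mismatches stood in windows of 2 of the 6 genes, and in 4.40% of the 27025 genes with such a window. The exact half-site AGGTCA stood in 3 of the 6 (Acot3, Acot4 and Acot12), and in 18.1% of all genes with a window, and in Acot4 and Acot12 it overlapped the direct repeat. CCAAT stood in 5 of the 6, all but Acot12, and in 41.1% of all genes. These matches describe letters in a short window and are not binding sites. Acot1 had no exact half-site in its window, and sequence outside the windows was not searched. A link between these letters and the ratios of levels was not tested.

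All 7 thioesterase genes had a lower level in the OTD pool than in the Control pool, as did 51.6% of measured genes. Acot1, which encodes the cytosolic long-chain acyl-CoA thioesterase, was at a level of 83.4 in OTD and 166.9 in Control (1249 and 2222 reads), or 1.87-fold to 2.15-fold lower by its counting interval. Its mitochondrial copy Acot2 was 1.51-fold lower. The remaining 5 were between 1.13-fold and 1.35-fold lower. Of the 7, 5 were at least 1.2-fold lower by log2 ratio, where 8.3% of the 7602 measured genes were, and 1 was at least 1.5-fold lower, where 0.908% were. None passed 2-fold by log2 ratio, as Acot1 had −0.99, and 0.21% of measured genes did. At 1.2-fold, Acot8 lay just inside with a log2 ratio of −0.26 and a ratio of 0.823, and Acot4 just outside with −0.26 and 0.834. The median log2 ratio of the 7 was −0.42, beside −0.0063 for all measured genes.

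**Figure D1:**
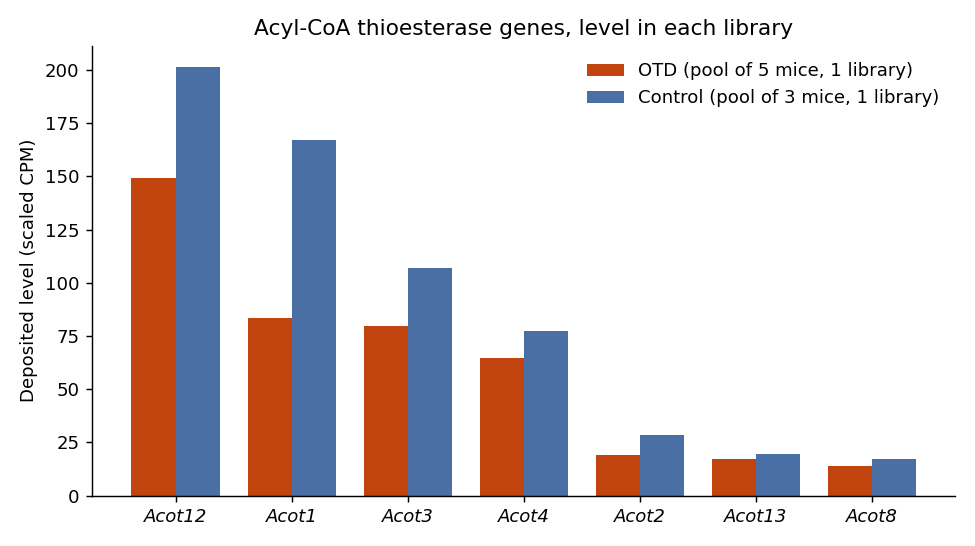
Level of each thioesterase gene (scaled CPM, linear axis from 0) in the OTD library, left bar of each pair, and the Control library, right bar, with genes in order of mean level. Each bar is 1 pooled library, so there are no error bars; Acot1 shows the widest gap, 83.4 against 166.9, and Acot13 the narrowest, 17.2 against 19.5.

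Per kb of transcript the cytosolic enzymes were the most abundant. The 95% counting interval of the Acot1 ratio ran from 0.466 to 0.536, and Acot1 ranked 17 from the lowest log2 ratio among the 7602 measured genes. Acot12, the cytosolic acetyl-CoA hydrolase, was at 149.3 in OTD and 201.3 in Control, from 2235 and 2679 reads. Its ratio was 0.742 (0.701 to 0.785). It lies outside the cluster, on chromosome 13 at 91741512 to 91786148 in GRCm38, with 15 exons. Summed, the pair had a level of 232.7 in OTD and 368.2 in Control, a ratio of 0.632 (0.605 to 0.660). The order of these genes differed between the libraries: per kb of transcript, Acot1 stood at 36.7 and Acot12 at 48.8 in OTD, while in Control Acot1 stood at 73.5 and Acot12 at 65.8. Acot1 was 0.752 times Acot12 in OTD (0.701 to 0.806) and 1.12 times in Control (1.05 to 1.18), both per kb of transcript. Per kb of coding length the values were 0.742 in OTD and 1.10 in Control, with the same order.

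Of the mitochondrial enzymes, Acot2 had a lower ratio than Acot13. Acot2, which acts on long-chain acyl-CoA in the matrix, was at 18.9 in OTD and 28.5 in Control, from 283 and 379 reads. Its ratio was 0.664 (0.567 to 0.776), and its log2 ratio of −0.57 was just short of 1.5-fold, as the pseudocount lowers it. Acot13, a small hotdog-fold thioesterase associated with mitochondria, was at 17.2 in OTD and 19.5 in Control, from 257 and 259 reads. Its ratio of 0.882 had an interval of 0.740 to 1.05, so a difference was not detectable at this depth. Acot13 lies on chromosome 13 at 24817948 to 24831540, on the minus strand, with 3 exons.

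Of the peroxisomal enzymes, Acot3, a long-chain acyl-CoA thioesterase, was at 80.0 in OTD and 107.0 in Control, from 1197 and 1424 reads, with a ratio of 0.747 (0.692 to 0.808). Acot4, which in mouse acts on succinyl-CoA and other dicarboxylyl-CoA esters, was at 64.7 in OTD and 77.5 in Control, from 968 and 1032 reads. Its ratio was 0.834 (0.763 to 0.911). Acot8, a peroxisomal thioesterase of broad specificity that also takes bile acid-CoA esters, was at 14.0 in OTD and 17.1 in Control, from 210 and 227 reads, with a ratio of 0.823 (0.679 to 0.997). Acot8 lies on chromosome 2 at 164792765 to 164804882, on the minus strand, with 6 exons. The 3 genes summed to 158.6 in OTD and 201.6 in Control, a ratio of 0.787 (0.744 to 0.832), above the 0.632 of the cytosolic pair. For the mitochondrial pair the sums were 36.1 in OTD and 47.9 in Control, a ratio of 0.753 (0.670 to 0.845), an interval that holds that of the peroxisomal genes.

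The counting interval of the ratio lay wholly below 1 for 6 of the 7 genes, and did so for 19.6% of all measured genes. Between genes, 21 pairs of ratios were compared by an exact conditional interval on the reads, with no adjustment for the number of pairs. In 9 pairs the interval left out 1, and 6 of these were Acot1 against each other gene. The ratio of Acot1 was 0.753 times that of Acot2 (0.634 to 0.895), 0.669 times that of Acot3 (0.602 to 0.743) and 0.566 times that of Acot13 (0.468 to 0.685). The other 3 pairs were Acot2 below Acot4 (0.796, 0.664 to 0.954), Acot2 below Acot13 (0.753, 0.593 to 0.955) and Acot4 above Acot12 (1.12, 1.01 to 1.25). Acot3 and Acot12, members of different enzyme families on different chromosomes, had ratios that differed by a factor of 1.01 (0.915 to 1.11).

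**Figure D2:**
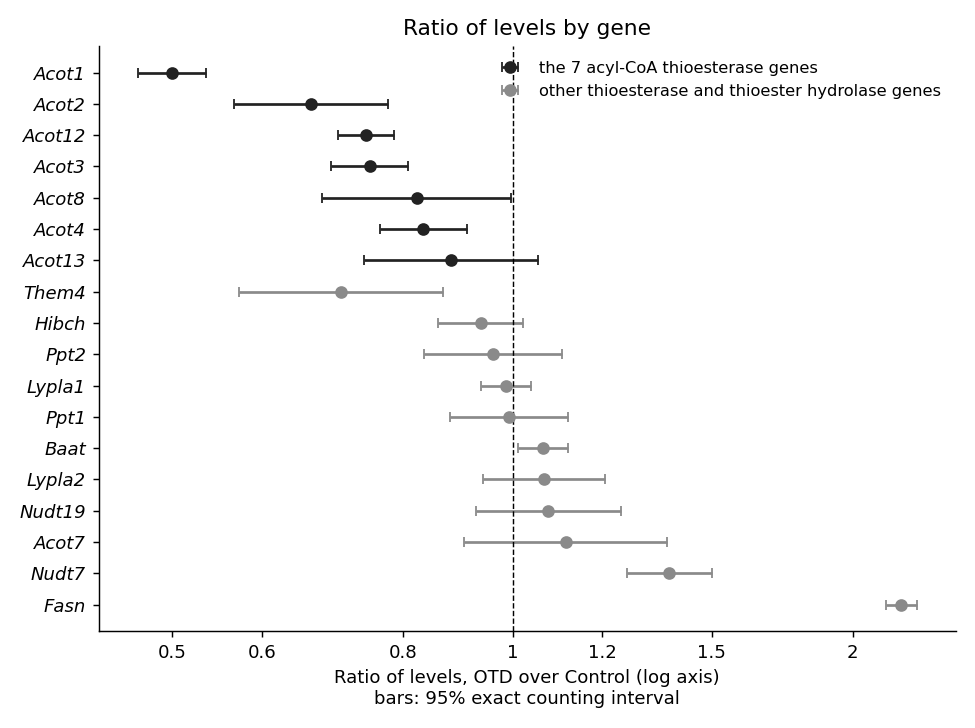
Ratio of levels, OTD over Control, on a log axis for the 7 thioesterase genes (black) and other measured genes (grey). The grey genes are other thioesterases and thioester hydrolases, with the coenzyme A diphosphatases Nudt7 and Nudt19 among them. Bars are 95% exact counting intervals and the dashed line marks 1. The 7 genes run from 0.50 for Acot1 to 0.88 for Acot13, and of the other genes only Them4 and Fasn lie beyond the range from 0.93 to 1.4.

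Together the 7 genes had a summed level of 427.4 in OTD and 617.7 in Control, from 6399 and 8222 reads. The ratio was 0.692 (0.670 to 0.715). That of the summed hepatocyte markers, mostly Alb, was 0.865, and the part of hepatocyte content in the thioesterase ratio was not tested. Acot1 made up 43.9% of the summed difference and Acot12 27.3%. Without Acot1 the ratio of the sum was 0.763 (0.735 to 0.792). Of the reads of the 7 genes, Acot1 took 19.5% in OTD (exact interval 18.6% to 20.5%) and 27.0% in Control (26.1% to 28.0%). Acot12 took 34.9% in OTD (33.8% to 36.1%) and 32.6% in Control (31.6% to 33.6%), and Acot4 15.1% in OTD (14.3% to 16.0%) and 12.6% in Control (11.8% to 13.3%). The intervals of the OTD and Control shares lay apart for Acot1, Acot12 and Acot4, and overlapped for Acot2, Acot3, Acot8 and Acot13.

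**Figure D3:**
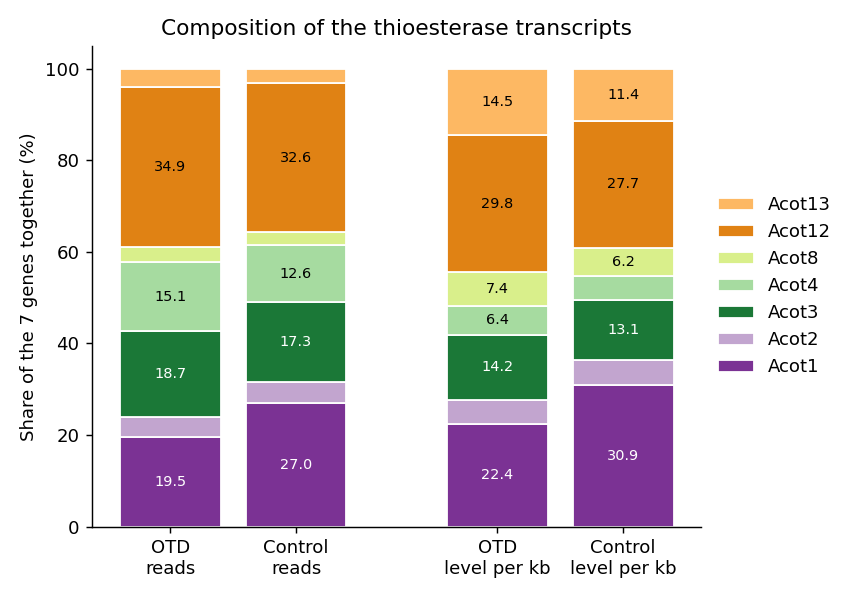
Share of each gene in the 7 thioesterase genes together (percent), by reads (left pair) and by level per kb of transcript (right pair), with OTD left of Control in each pair. The Acot1 part is 19.5% of reads in OTD and 27.0% in Control, and per kb 22.4% in OTD and 30.9% in Control.

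Per kb of transcript, mean levels over the libraries ran from 57.3 for Acot12 and 55.1 for Acot1 through 27.2 for Acot3, 25.4 for Acot13, 13.5 for Acot8 and 11.5 for Acot4 to 10.8 for Acot2. Acot12 and Acot1 thus stood apart from the others on this scale. The place of Acot4 depends on its length, as its annotated transcript has 6203 bases, of which 1263 are coding. Per kb of coding sequence Acot4 stood at 56.3, behind Acot12 (105.1), Acot1 (99.6) and Acot3 (72.1), and ahead of Acot13 (43.6), Acot2 (17.4) and Acot8 (16.2). Between neighbours in this order Acot12 and Acot1 differed in opposite directions in the libraries, as given above.

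Because the copies are alike, reads can be split among them. Of the 50-base stretches of the Acot1 transcript, 32.1% also occur in another copy of the cluster, and of those of Acot2 27.6%, mostly in each other. The share was 7.69% for Acot3 and 4.48% for Acot4, and 0% for Acot8, Acot12 and Acot13. How reads matching several copies were assigned, and how long the reads were, is not given in the sources used here. Summing Acot1 with Acot2 gave a level of 102.3 in OTD and 195.4 in Control, a ratio of 0.524 (0.491 to 0.558), which no split between these copies can change. Acot3 with Acot4 gave 144.6 in OTD and 184.5 in Control, a ratio of 0.784 (0.739 to 0.831). The 5 listed copies of the cluster together, Acot6 included, had a ratio of 0.651 (0.624 to 0.679), against 0.759 (0.721 to 0.799) for Acot8, Acot12 and Acot13 summed. Acot5 was not among the listed genes and was compared by sequence only. The gene model Gm49366 spans most of Acot4 and Acot3 on the same strand and shares 11.2% of the 50-base stretches of Acot3. On the opposite strand, 4732463B04Rik overlaps Acot3 and Acot4, and Snx21 overlaps 1052 bases of Acot8, with a level of 6.61 in OTD and 7.89 in Control. The libraries kept strand, but whether counting used it is not stated, so reads of such partners may be included.

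**Figure D4:**
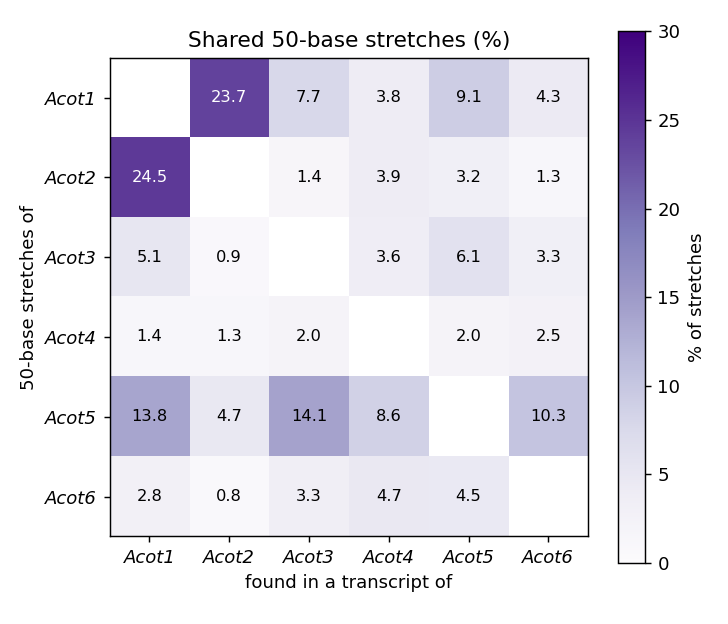
Percent of the 50-base stretches of each chromosome 12 copy (rows) that also occur in a transcript of another copy (columns). Acot1 and Acot2 share the most, 23.7% of the stretches of Acot1 and 24.5% of those of Acot2.

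Other thioesterases did not show the same direction throughout. Of the 9 other Acot and Them genes listed, 6 were in the table and 2 were measured, with a median log2 ratio of −0.16. Them4, a mitochondrial thioesterase, was at 11.3 in OTD and 16.0 in Control, a ratio of 0.705 (0.573 to 0.867). Acot7, the main thioesterase of brain, was at 14.2 in OTD and 12.8 in Control, a ratio of 1.11 (0.906 to 1.37). Acot6, Acot9, Acot11 and Them6 were under a mean level of 10, with 11, 41, 22 and 20 reads in OTD and 10, 32, 24 and 23 reads in Control, and their intervals all held 1.

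The list of other thioester hydrolases also holds the coenzyme A diphosphatases Nudt7, Nudt8 and Nudt19, which do not cut thioesters. Of the list, 9 of 12 were measured and 0 were at least 1.2-fold lower. Nudt7 and Fasn were at least 1.2-fold higher (background 10.7%). The median log2 ratio, with Nudt7 and Nudt19 included, was 0.089 (−0.011 without a filter on low levels). Nudt7, a peroxisomal coenzyme A diphosphatase that breaks coenzyme A rather than the thioester, was at 88.7 in OTD and 64.5 in Control, a ratio of 1.38 with an interval above 1. Fasn, the fatty acid synthase that holds its own thioesterase domain, had a ratio of 2.21. Baat, which joins bile acid-CoA to taurine and has some thioesterase activity, was at 223.0 in OTD and 209.7 in Control, a ratio of 1.06 (1.01 to 1.12). The protein depalmitoylases Ppt1 (38.5 in OTD, 38.8 in Control) and Lypla1 (214.1 in OTD, 216.8 in Control) had ratios of 0.992 and 0.987. Ppt2, Lypla2, Hibch and Nudt19 had ratios from 0.937 to 1.08, with intervals that held 1. Abhd10 and Nudt8 were under a mean level of 10, with 30 and 115 reads in OTD and 36 and 140 in Control. Their ratios were 0.741 (0.441 to 1.24) and 0.730 (0.566 to 0.941). The count of 0 lower genes in this list thus depends on the filter on low levels.

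The enzymes that make acyl-CoA were mixed. Of 14 measured acyl-CoA synthetases and fatty acid transporters, 2 were at least 1.2-fold lower and 2 at least 1.2-fold higher, with a median log2 ratio of −0.047. Over all measured genes 8.3% were at least 1.2-fold lower and 10.7% at least 1.2-fold higher. These shares are the background for each list below. Acsl1, the main long-chain synthetase of liver, was at 1159 in OTD and 1438 in Control, a ratio of 0.806. Slc27a2, a very long-chain synthetase and transporter, had a ratio of 0.657 (1013 in OTD, 1541 in Control). In the other direction, Acsl3, a synthetase of lipid droplets and endoplasmic reticulum, had a ratio of 1.39, and Acss2, which makes cytosolic acetyl-CoA from acetate, had 1.33 (206.3 in OTD, 155.6 in Control). Acss2 and Acot12 catalyse opposite steps between acetate and acetyl-CoA, and their ratios were 1.33 and 0.742.

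Of the 10 lists, mitochondrial beta-oxidation had the lowest median. All 18 measured mitochondrial beta-oxidation genes had a log2 ratio below 0 (51.6% of measured genes did), with a median of −0.26. Of these, 7 were at least 1.2-fold lower (background 8.3%). Cpt1a, which controls entry of long-chain acyl groups into mitochondria, had a ratio of 0.699, Eci1, an enoyl-CoA isomerase, had 0.709, Acadm, the medium-chain dehydrogenase, had 0.750, and Acaa2, the thiolase, had 0.868. Of 21 measured peroxisomal genes 18 were below 0, 9 at least 1.2-fold lower and 1 higher (background 8.3% and 10.7%), with a median of −0.15. The ratio of Eci2, a peroxisomal enoyl-CoA isomerase, was 0.684, and that of Ehhadh, the bifunctional enzyme, was 0.715. Pex11a, a factor of peroxisome division, had 0.462 (22.6 in OTD, 48.8 in Control). The median of the 7 thioesterases, −0.42, lay below both list medians. All 7 lay within the range of the peroxisomal genes (−1.08 to 0.37), but its low end is Pex11a alone. The next lowest peroxisomal gene was Eci2 at −0.55, and Acot1 and Acot2 lay below it. All but Acot1 and Acot2 lay within the range of the mitochondrial genes (−0.51 to −0.078).

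Of 12 measured omega-oxidation genes 4 were at least 1.2-fold lower and 2 at least 1.2-fold higher (background 8.3% and 10.7%). Their median log2 ratio was −0.14, and −0.050 without a filter on low levels. The omega-hydroxylases Cyp4a14 and Cyp4a10 had ratios of 0.201 and 0.375, both below that of Acot1, while Adh1, an alcohol dehydrogenase, had 1.39. Of 13 measured genes of coenzyme A synthesis and breakdown 1 was at least 1.2-fold lower and 0 higher, near or below background, with a median of −0.068. This was Vnn1, a pantetheinase, at 15.2 in OTD and 34.0 in Control. The pantothenate kinases Pank1 and Pank3, which control the pace of coenzyme A synthesis, had ratios of 0.841 and 0.856.

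Acyl-CoA and fatty acid binding genes had a median of −0.090 over 10 measured genes, 2 at least 1.2-fold lower and 1 higher. The background for this and the next lists was again 8.3% lower and 10.7% higher. Fabp1, the liver fatty acid binding protein, had a ratio of 0.812, Scp2 had 0.920, the uptake receptor Cd36 had 0.612 (29.1 in OTD, 47.5 in Control), and Fabp5 had 1.69 (23.8 in OTD, 14.1 in Control). Among PPAR-alpha and its partners the median was −0.14 over 9 measured genes (−0.25 at a mean level of at least 50), 2 at least 1.2-fold lower and 1 higher. Ppara itself was at 321.0 in OTD and 381.1 in Control, a ratio of 0.842. Hnf4a, a nuclear receptor of hepatocytes, had a ratio of 0.707 and Lpin1, a phosphatidate phosphatase that also acts as a coactivator, 0.662, while Ppard had 1.48. Genes of glycerolipid and sterol ester synthesis, most of them acyl-CoA users, had a median of −0.16 over 8 measured genes. The list also holds Lpin1 and Lpin2, phosphatidate phosphatases that do not use acyl-CoA. Of the 8, 2 were at least 1.2-fold lower and 1 higher. Lpin1, counted in the PPAR-alpha list too, had a log2 ratio of −0.59. Lpin2 was at −0.13 and Soat2, which esterifies cholesterol, at −0.34, while Gpam, the first acyltransferase, was at 0.58.

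**Figure D5:**
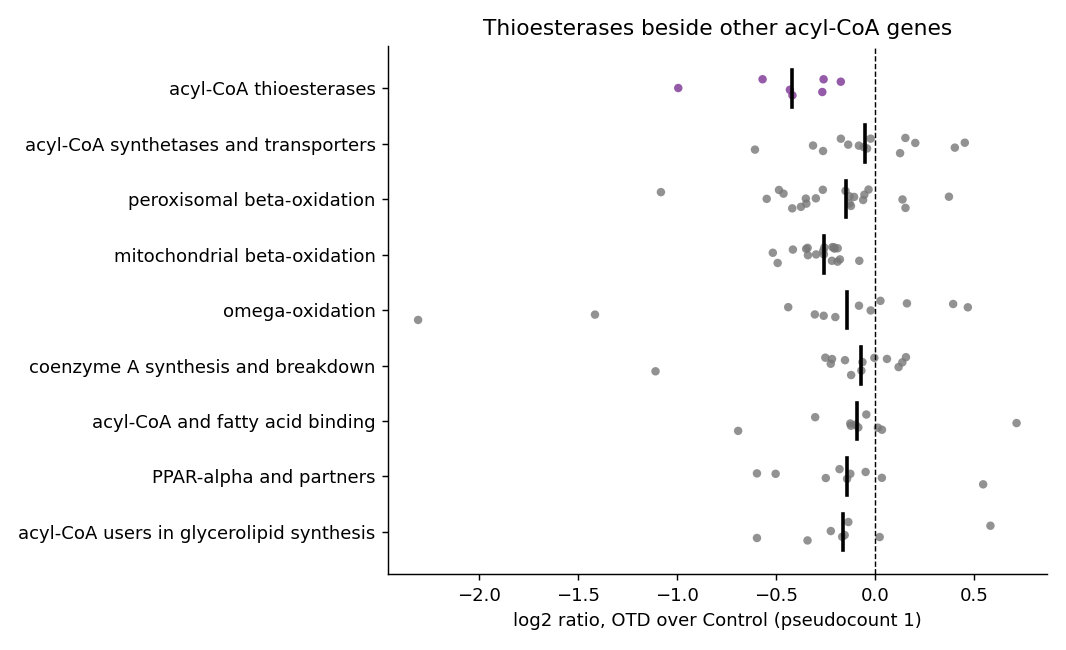
Log2 ratio (OTD over Control, pseudocount 1) of each measured gene of the thioesterases (top row, purple) and of 8 lists of acyl-CoA genes (grey); black bars are medians and the dashed line marks 0. The thioesterase median is −0.42, and the medians of the 8 lists plotted run from −0.26 for mitochondrial beta-oxidation to −0.047 for synthetases and transporters.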

How the data were processed

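Liver RNA of 2 pools of mice was sequenced after ribosomal RNA depletion with a strand-keeping kit, 1 library per group, per the labels' protocols. The authors deposited 1 normalized signal per gene symbol and library. Trimmomatic 0.38, Bowtie2, RSEM, edgeR and mm10 are named in the submitters' processing notes, with no role or order; annotation, gene filter and read assignment are not stated there.

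Every value (100%) was a whole number of steps of the smallest value of its column (tolerance 1e-06), so reads were recovered. As each group is 1 library, no residual degrees of freedom exist and no count test could be run on them. Ratios, exact intervals and log2 ratios were computed with Python 3.11.15, numpy 2.4.6, pandas 2.3.3 and scipy 1.17.1 and tested on simulated reads, and figures were drawn with matplotlib 3.10.9. Intervals cover counting error only. For each gene the GENCODE M21 transcript (GRCm38, the mm10 assembly) with the longest coding sequence was used. Coding sequences were aligned in pairs with Biopython 1.88, and the 90-base stretch was chosen from a joint alignment made with MAFFT. Promoter windows came from RefSeq (GRCm38.p6). The compartment sums follow textbook locations.

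The genes, lists and rules were chosen with earlier results of these data known. The text names the 7 thioesterases, other listed thioesterases, from each further list the most abundant gene and up to 3 with the largest log2 ratio, and the 5 genes nearest in log2 ratio to Acot1; Ppara and those in overlaps were named in addition, after their values were seen. A gene that this rule takes is not reported here. Alternatives were other scalings, pseudocounts of 0.5 and 10, a mean of at least 50 or no filter, copies summed and each gene left out of the sum.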

Additional observations from a re-analysis of the deposited data

How the results depend on the processing

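No paired analysis was possible because each group had 1 library. Of 50 log2 ratios of the 7 genes under the alternatives, all 50 stayed below 0. A change of pseudocount, or a sum of copies that are each lower in OTD, could not have altered the sign. Of the 50, 4 moved beyond the counting interval, all through summing copies: Acot2 to −0.93 when summed with Acot1, and Acot1, Acot3 and Acot4 to −0.62 when the chromosome 12 copies were summed, as the sum mixes their ratios. The ratio of the summed level became 0.719 at the same total and 0.728 at the same total without Rn45s, a ribosomal RNA precursor (an alternative chosen after seeing the data), 0.763 without Acot1 and 0.668 without Acot12; that of the chromosome 12 copies became 0.684 without Rn45s. Rn45s took 2.66% of the reads of all listed genes in OTD and 1.47% in Control. The count of 5 genes at least 1.2-fold lower became 3 at a mean of at least 50, where 4 of the 7 remained, and 4 under 4 further settings; the count at 1.5-fold stayed at 1. Over all measured genes the 631 at least 1.2-fold lower became 397 at the same total, 339 without Rn45s, 1728 with no filter, 355 with a pseudocount of 10 and 242 with the higher minimum mean of 50, and the 69 at least 1.5-fold lower ran from 30 to 190. The 810 at least 1.2-fold higher became 1252 without Rn45s, 2331 with no filter, 464 with a pseudocount of 10 and 242 with the minimum mean of 50. Of 79 list medians, 4 moved by more than the median half-width of their genes' counting intervals: PPAR-alpha and partners to −0.25 with a minimum mean of 50, omega-oxidation to −0.050 with no filter and −0.067 without Rn45s, and mitochondrial beta-oxidation to −0.18 without Rn45s. Of the 79, 75 kept their sign, and 3 of 10 lists had a median of either sign (synthetases and transporters, coenzyme A, and other thioester hydrolases). The median of other Acot and Them genes could not be computed at a mean of at least 50. Depth limits Acot13 and Acot8 most.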

Other observations

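The 5 measured genes whose log2 ratio was nearest to that of Acot1 (−0.99) were Gm2083 (−0.97), Hmga1 (−0.97), Id1 (−0.97), Axin2 (−1.02) and Mup9 (−1.02). The likeness is nearness of 1 ratio between 2 libraries. Gm2083 was at 454.3 in OTD and 892.4 in Control, and Mup9, a major urinary protein gene, at 1528 in OTD and 3109 in Control. Hmga1, a chromatin protein gene, was at 7.95 in OTD and 16.5 in Control, Id1, a target of BMP signalling, at 8.08 in OTD and 16.8 in Control, and Axin2, a Wnt target, at 9.42 in OTD and 20.1 in Control.

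Them7, a further thioesterase superfamily gene named after its values were seen, was at 18.8 in OTD and 19.4 in Control, from 281 and 258 reads. Its ratio of 0.968 had an interval of 0.815 to 1.15.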
